A study of Mus musculus with 9 samples.

Results

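A set of 10 genes of the YAP and TAZ pathway were followed through a 24 h culture experiment in mouse 3T3-L1 cells, an established line of precursors that can become adipocytes. The 10 symbols, of 28965 in the expression table, were Yap1, Wwtr1 (which encodes TAZ) and Tead1, and the known targets or feedback regulators Ccn1, Ccn2, Ankrd1, Amotl2, Lats2, Ajuba and Axl. The set was chosen by measured values of these same libraries, the strong fall of Ccn2 and Ankrd1 with oleic acid. Since the OA and MDI values chose the set, the OA against MDI comparison is described without a test for all 10 members, and Ccn2 and Ankrd1 are described without a test throughout. The other 8 members were tested in the comparisons of OA_T0 with OA and with MDI. Each of these comparisons shares a group of libraries with the choice, so its calls are not fully independent of it.

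The 9 libraries formed 3 groups of 3. The OA_T0 group received 100 µM oleic acid, carried on bovine serum albumin, and 5 µM T0901317, a synthetic agonist of the liver X receptors. The OA group received the same oleic acid without the agonist, and the MDI group the albumin vehicle. All cells were labelled WT, were held for 2 days after confluence, and were then kept for 24 h in an adipogenic cocktail of insulin (0.1 µg/mL), IBMX (30 µg/mL) and dexamethasone (0.1 µg/mL). No group received T0901317 without oleic acid. The libraries were strand-specific and made from poly(A) RNA. One established line was used, and the labels do not say if a group's replicates were grown apart. The spread behind the tests may therefore be technical.

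YAP and TAZ are transcriptional coactivators with no DNA-binding domain of their own. They enter the nucleus when the Hippo kinases, among them LATS1 and LATS2, do not phosphorylate them, and they bind TEAD factors there. Their activity follows cell density, cell shape and actin tension, and some of their targets, such as Lats2, Amotl2 and Ajuba, encode regulators of the pathway itself. In mesenchymal precursors TAZ is known to bind PPARγ and to restrain adipocyte differentiation.

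The TEAD family recognises GGAATG, and the sequence upstream of the members was searched for it on both strands, since TEAD binding is the step that the targets share. RefSeq promoters of the GRCm38.p6 build were on hand for 8 of the 10 members, as 10 windows of 250 bases before a transcription start. Ccn2 and Tead1 had no entry. GGAATG or its complement lay in the window of 7 of the 8 genes (87.5%), Lats2 being the exception, against 12.6% of 32851 promoter windows and 14.4% of 27025 genes in the same table. Windows of the 4 targets whose RNA differed most or carried 2 matches are shown first. Letters run 5′ to 3′ on the strand of the gene, and capitals mark GGAATG or, for a match on the other strand, CATTCC. The windows are Ccn1, chr3:145649986-145650235, minus strand; Ankrd1, chr19:36119845-36120094, minus strand; Amotl2, chr9:102717554-102717803, plus strand; and Ajuba, chr14:54577662-54577911, minus strand.
Ccn1: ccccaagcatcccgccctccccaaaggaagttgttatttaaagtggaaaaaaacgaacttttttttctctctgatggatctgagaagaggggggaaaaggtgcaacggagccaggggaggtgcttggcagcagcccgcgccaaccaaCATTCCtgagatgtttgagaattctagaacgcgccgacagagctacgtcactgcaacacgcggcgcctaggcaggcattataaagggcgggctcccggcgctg
Ankrd1: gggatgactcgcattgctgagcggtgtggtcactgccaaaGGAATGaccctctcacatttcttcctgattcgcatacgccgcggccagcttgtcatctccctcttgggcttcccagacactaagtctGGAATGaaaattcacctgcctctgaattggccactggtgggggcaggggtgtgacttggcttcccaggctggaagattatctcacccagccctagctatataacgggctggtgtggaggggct
Amotl2: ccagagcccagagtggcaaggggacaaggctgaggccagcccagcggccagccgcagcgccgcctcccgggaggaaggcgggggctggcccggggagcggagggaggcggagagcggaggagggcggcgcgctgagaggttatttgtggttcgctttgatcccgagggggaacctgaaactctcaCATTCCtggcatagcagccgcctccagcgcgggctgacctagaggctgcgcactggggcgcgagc
Ajuba: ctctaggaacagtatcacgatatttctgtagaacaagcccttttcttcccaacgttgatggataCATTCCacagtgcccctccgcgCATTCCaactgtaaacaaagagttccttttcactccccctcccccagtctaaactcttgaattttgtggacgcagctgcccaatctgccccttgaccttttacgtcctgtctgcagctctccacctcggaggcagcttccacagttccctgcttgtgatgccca
The match began 103 bases before the start of Ccn1 and 65 before that of Amotl2. Ankrd1 had a match at 210 and another at 123 bases, and Ajuba at 186 and 164. For Axl and for the coactivator genes themselves the match is shown with 15 bases on each side, because the letters next to the core vary: Axl at chr7:25788946-25788981, Yap1 at chr9:8004717-8004752 and Wwtr1 at chr3:57576026-57576061, all on the minus strand.
Axl: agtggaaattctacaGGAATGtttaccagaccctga
Yap1: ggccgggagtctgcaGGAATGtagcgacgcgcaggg
Wwtr1: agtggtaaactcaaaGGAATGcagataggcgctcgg
These began 233, 141 and 136 bases before the start. Wwtr1 had another window with a different start, from which the same match lay 170 bases away. No member window held the AP-1 motif TGANTCA, which 6.75% of all windows held, or a CArG box, the motif of serum response factor, which 1.47% held. A match describes the letters of the window and is no measurement of binding. Among genes of the wider pathway, described further on, GGAATG lay upstream of 2 of the 10 other target genes with a window (Crim1 and Ptpn14) of 4 of 17 Hippo kinases and upstream regulators, and of 3 of the 4 other TEAD and vestigial-like genes with a window (Tead3, Vgll3 and Vgll4). With that last list, a high share was not found in the members alone, though the list had few windows. Outside the pathway, 2 of 4 smooth muscle markers with a window, Acta2 and Smtn, held it. The counts were 1 of 4 for preadipocyte and fibroblast markers and 1 of 4 for adipocyte markers. They were 0 of 2 for endothelial and 0 of 2 for macrophage and leukocyte markers.

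**Figure D1:**
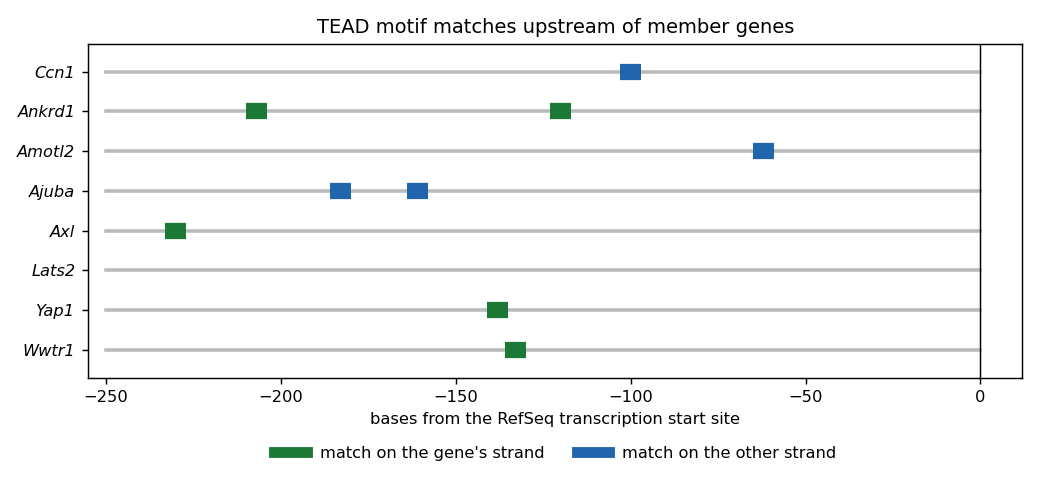
Position of each GGAATG match within 250 bases before the RefSeq transcription start of the 8 member genes with a window, in bases from the start; green boxes are matches on the strand of the gene and blue boxes on the other strand. The 7 genes with a match carry it between 65 and 233 bases before the start, and Lats2 has none. Wwtr1 is drawn from the start that places its match at 136 bases, and another start places it at 170.

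Values are the authors' normalised read counts, which were not whole numbers. Estimated depth was 18.0 to 59.9 M fragments per library, so that 3 fragments were worth 1.35 to 4.62 normalised counts. All 10 members lay far above that floor and passed the filter on low values, a mean of at least 10. The share of 1 annotated ribosomal RNA gene was 0.649% in OA library 1 and 3.06% in OA_T0 library 3, against 4.40% to 5.97% in the other 7 libraries. Calls on members and on genes of the pathway lists that ended without these 2 libraries are named with their values. Divided by exon length, the members' MDI levels ran from 2094 normalised counts per kb for Ccn1, 1939 for Axl and 1346 for Amotl2, through 507 for Yap1, 473 for Wwtr1 and 337 for Tead1, to 161 for Ajuba, 147 for Lats2, 86.7 for Ankrd1 and 66.2 for Ccn2. All 7 preadipocyte and fibroblast markers were abundant, with sums of 214349 to 245550 normalised counts in OA_T0, 241528 to 267832 in OA and 235765 to 251148 in MDI libraries. The overlapping sums hide single markers that moved. Pdgfra had 11816 ± 1667 in OA_T0, 18401 ± 437 in OA and 13276 ± 1212 in MDI libraries, and Col3a1 58864 ± 1961 in OA_T0, 77738 ± 2693 in OA and 74845.5 ± 5389.6 in MDI (normalised counts, SD, n = 3 each). In OA_T0 against OA, Dlk1 rose while Pdgfra and Col3a1 fell. Pdgfra was also higher in OA than in MDI, and Col3a1 lower in OA_T0 than in MDI (limma, adjusted p of 0.000153 to 0.0444 for these 5 calls). Adipoq, Plin1, Cidec and Cfd, markers of mature adipocytes, stayed between 0 and 6.76 in every library.

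With T0901317 beside oleic acid, 4 of the 8 tested members were higher and 1 was lower than with oleic acid alone. Ccn1, Amotl2, Ajuba and Axl rose in OA_T0 over OA, Wwtr1 fell, and Lats2, Tead1 and Yap1 did not pass the test. Over all 15002 tested genes, 8.27% were called higher and 6.84% lower in this comparison (limma, Benjamini-Hochberg adjusted p under 0.05). The median log2 fold change was 0.19 over the 8 members and -0.0023 over all tested genes. In OA_T0 against MDI 1 of the 8, Ccn1, was called higher and 0 lower, where 1.25% of all genes were called higher and 1.36% lower. At an unadjusted p under 0.05, 2 members were higher and 1 lower in OA_T0 than in MDI, and the median over the 8 was 0.002, against 0.0189 over all genes. The share of all genes under that unadjusted threshold was not counted. Unadjusted counts, here and for the lists below, are therefore not read as results. Because the RNA came from whole cultures, fewer cells of a type and less RNA per cell cannot be told apart in any of these values.

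In OA against MDI, which chose the set, the 3 libraries of each group did not overlap for 8 members: 7 were lower in OA (Ccn1, Ccn2, Ankrd1, Amotl2, Lats2, Axl and Tead1) and Wwtr1 was higher. Among all 15002 genes, 12.6% lay lower without overlap and 13.4% higher. OA held the lowest mean of the 3 groups for 7 of the 10 members and the highest for the 2 coactivators, Yap1 and Wwtr1. The 7 include Ccn2 and Ankrd1, which chose the set. The share of all genes with OA lowest or highest was not counted, so these counts are not read as a result. OA_T0 against OA and OA against MDI use the same 3 OA libraries, so their values are set side by side and were not compared as independent results.

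**Figure D2:**
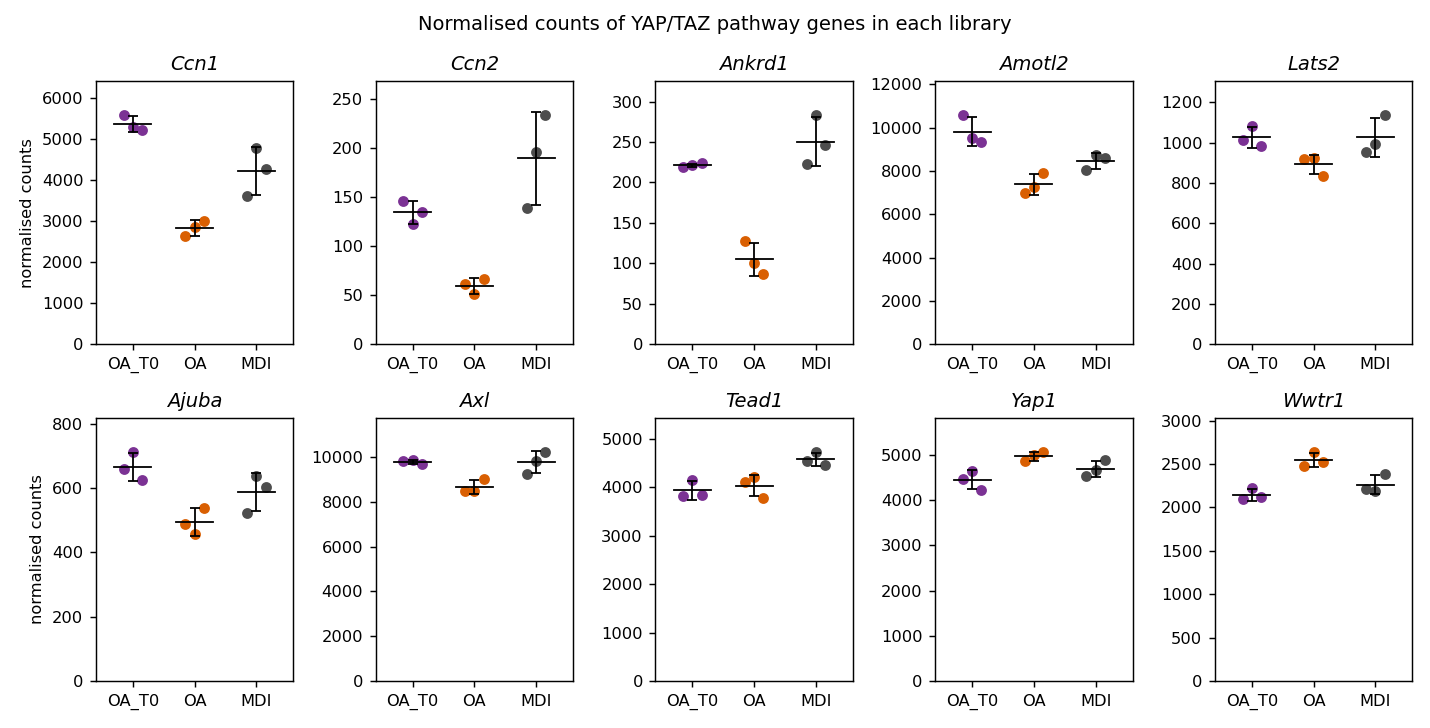
Normalised counts of the 10 members in each library of OA_T0, OA and MDI; points are libraries, and bars show the mean ± SD (n = 3). For 7 members, among them Ccn2 and Ankrd1, which chose the set, the OA libraries average lowest, and for Yap1 and Wwtr1 they average highest. The share of all genes with these orders was not counted.

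Ccn1 and Ccn2 encode secreted matricellular proteins, CYR61 and CTGF, and are the transcripts most often read as a measure of YAP and TAZ activity. Ccn1 had 5582, 5296 and 5236 normalised counts in OA_T0, 2628, 2852 and 3012 in OA, and 3623, 4782 and 4277 in MDI libraries. The 3 groups did not overlap, with OA_T0 highest and OA lowest. The means were 5371 ± 185 in OA_T0, 2831 ± 192 in OA and 4227 ± 581 in MDI (SD, n = 3 each). Ccn1 was thus 1.90-fold higher in OA_T0 than in OA, a log2 fold change of 0.93 (SE 0.08; limma, adjusted p = 3.315e-06). It was also higher in OA_T0 than in MDI, by 0.35 on the log2 scale (SE 0.08; limma, adjusted p = 0.0363). That second call ended without MDI library 1 (adjusted p = 0.152), OA_T0 library 1 (0.186) or OA_T0 library 2 (0.0657), and with no filter on low values (0.168). In OA against MDI the log2 fold change of Ccn1 was -0.57 (SE 0.08).

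Ccn2 had 146, 123 and 135 normalised counts in OA_T0, 61.5, 51.0 and 66.9 in OA, and 139, 196 and 233 in MDI libraries. All OA libraries lay below those of both other groups, while OA_T0 and MDI overlapped through the lowest MDI library. Its mean was 135 ± 11.6 in OA_T0, 59.8 ± 8.09 in OA and 189 ± 47.5 in MDI (SD, n = 3 each). Expressed as log2 fold changes, Ccn2 differed by 1.16 (SE 0.19) in OA_T0 against OA, by -0.46 (SE 0.19) in OA_T0 against MDI and by -1.62 (SE 0.19) in OA against MDI, the widest of the 10 members in the last comparison. The MDI libraries of Ccn2 spread more widely than those of either oleic acid group.

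Ankrd1 encodes a cardiac ankyrin repeat protein that binds titin in muscle and is a common YAP and TAZ reporter gene. It had 219, 221 and 223 normalised counts in OA_T0, 128, 101 and 87.3 in OA, and 222, 283 and 246 in MDI libraries. The OA libraries again lay below all others, and the OA_T0 libraries, within a few counts of each other, overlapped the lowest MDI library. Means were 221 ± 2.04 in OA_T0, 105 ± 20.5 in OA and 250.3 ± 30.5 in MDI (SD, n = 3 each). The log2 fold change was 1.08 (SE 0.14) in OA_T0 against OA, -0.17 (SE 0.14) in OA_T0 against MDI and -1.25 (SE 0.14) in OA against MDI. Ankrd1 and Ccn2 were the 2 least abundant members per kb of exon.

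Amotl2, Lats2 and Ajuba act back on the pathway: angiomotin-like 2 holds YAP at junctions, LATS2 phosphorylates YAP and TAZ, and the LIM protein AJUBA binds and restrains LATS kinases. Amotl2 had 10564, 9534 and 9338 normalised counts in OA_T0, 6993, 7239.9 and 7892 in OA, and 8053, 8734 and 8601 in MDI libraries. As for Ccn1, the groups did not overlap and OA_T0 was highest. Amotl2 averaged 9812 ± 659 in OA_T0, 7375 ± 464 in OA and 8463 ± 361 in MDI (SD, n = 3 each), and rose 1.33-fold in OA_T0 over OA (log2 0.41, SE 0.07; limma, adjusted p = 0.00064). Against MDI the OA_T0 difference of 0.21 (SE 0.07, 95% interval 0.07 to 0.35) did not pass (limma, adjusted p = 0.104), and OA against MDI was -0.20 (SE 0.07).

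Ajuba had 661, 713 and 627 normalised counts in OA_T0, 489, 456 and 539.9 in OA, and 523, 638 and 605 in MDI libraries. OA_T0 lay above OA without overlap, whereas MDI overlapped both. Ajuba averaged 667 ± 43.2 in OA_T0, 495 ± 42.2 in OA and 588 ± 59.3 in MDI (SD, n = 3 each), and rose 1.35-fold in OA_T0 over OA (log2 0.43, SE 0.09; limma, adjusted p = 0.00628). The difference of OA_T0 from MDI was 0.18 (SE 0.09, 95% interval -0.02 to 0.38; limma, adjusted p = 0.309), and OA against MDI was -0.25 (SE 0.09) with overlapping groups.

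Lats2 had 1014, 1081 and 981 normalised counts in OA_T0, 917, 923 and 837 in OA, and 952, 993 and 1135 in MDI libraries. The OA libraries were below all others, but the margin was narrow. Lats2 averaged 1025 ± 50.9 in OA_T0, 892 ± 48.4 in OA and 1027 ± 95.9 in MDI (SD, n = 3 each). Its OA_T0 against OA difference of 0.20 on the log2 scale (SE 0.08, 95% interval 0.04 to 0.37) did not pass (limma, adjusted p = 0.0964). OA_T0 and MDI differed by 0.001 (SE 0.08, 95% interval -0.17 to 0.17; limma, adjusted p = 0.996), with a sign that turned under another scaling, and OA against MDI was -0.20 (SE 0.08). The RNA of this kinase gene was therefore not shown to differ in either tested comparison.

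Axl encodes a receptor tyrosine kinase for the ligand GAS6 and is a YAP target known from cancer cells. Axl had 9799, 9860.1 and 9671 normalised counts in OA_T0, 8489.5, 8488 and 9024 in OA, and 9249, 9811 and 10220.5 in MDI libraries. OA was below both other groups without overlap, and OA_T0 lay within the MDI range. Its mean was 9777 ± 96.3 in OA_T0, 8667 ± 309 in OA and 9760.4 ± 488 in MDI (SD, n = 3 each). Axl rose 1.13-fold in OA_T0 over OA (log2 0.17, SE 0.06; limma, adjusted p = 0.0477), next to the threshold. The call ended without MDI library 2 (adjusted p = 0.0708), OA library 1 (0.169), OA library 2 (0.144), OA_T0 library 1 (0.151), OA_T0 library 2 (0.0868), OA_T0 library 3 (0.0871) or both libraries low in ribosomal RNA (0.243), with no filter on low values (0.0856) and with robust variances (0.0510). OA_T0 against MDI gave 0.004 (SE 0.06, 95% interval -0.12 to 0.12; limma, adjusted p = 0.980), whose sign turned under other scalings, and OA against MDI -0.17 (SE 0.06).

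The coactivator and TEAD genes moved by less than the leading targets. Wwtr1 had 2092, 2221 and 2123 normalised counts in OA_T0, 2479, 2638 and 2518 in OA, and 2208, 2190.02 and 2385 in MDI libraries. OA was above both other groups without overlap, whereas for the targets OA held the lowest mean. Wwtr1 averaged 2145 ± 67.2 in OA_T0, 2545 ± 83.0 in OA and 2261 ± 108 in MDI (SD, n = 3 each), and fell by 0.25 on the log2 scale in OA_T0 relative to OA (SE 0.06; limma, adjusted p = 0.00994). This, the 1 lower call among the 8, ended without OA_T0 library 1 (adjusted p = 0.0617) and without both libraries low in ribosomal RNA (0.0663). OA_T0 against MDI was -0.08 (SE 0.06, 95% interval -0.20 to 0.05; limma, adjusted p = 0.512), and OA against MDI 0.17 (SE 0.06).

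Yap1, the gene of the other coactivator, had 4467, 4654 and 4229 normalised counts in OA_T0, 4869, 4997 and 5066 in OA, and 4534, 4664 and 4891 in MDI libraries. OA_T0 lay below OA without overlap, and MDI overlapped both. The mean of Yap1 was 4450.2 ± 213 in OA_T0, 4977 ± 99.9 in OA and 4696 ± 181 in MDI (SD, n = 3 each). The OA_T0 against OA difference of -0.16 on the log2 scale (SE 0.06, 95% interval -0.28 to -0.04) did not pass (limma, adjusted p = 0.0619), although it did without OA_T0 library 2 (0.0392) and with equal library totals (0.0230). In OA_T0 against MDI it was -0.08 (SE 0.06, 95% interval -0.20 to 0.04; limma, adjusted p = 0.474), and in OA against MDI 0.08 (SE 0.06). The log2 of Wwtr1 over Yap1 was -1.09, -1.07 and -0.99 in OA_T0, -0.97, -0.92 and -1.01 in OA, and -1.04, -1.09 and -1.04 in MDI libraries, so that OA overlapped OA_T0 and lay above MDI.

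Tead1 encodes one of the DNA-binding partners and was the only member for which OA held the middle mean. It had 3816, 4157 and 3839.55 normalised counts in OA_T0, 4115, 4213 and 3786 in OA, and 4545, 4729 and 4457 in MDI libraries. Both oleic acid groups overlapped and lay below MDI. Tead1 averaged 3938 ± 191 in OA_T0, 4038 ± 224 in OA and 4577 ± 139 in MDI (SD, n = 3 each). OA_T0 against OA was -0.04 (SE 0.06, 95% interval -0.16 to 0.09; limma, adjusted p = 0.727). OA_T0 against MDI was -0.22 (SE 0.06, 95% interval -0.34 to -0.09; limma, adjusted p = 0.0683), which passed with quantile normalisation (0.0449), without OA library 3 (0.0404) and without OA_T0 library 2 (0.0497). OA against MDI was -0.18 (SE 0.06).

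**Figure D3:**
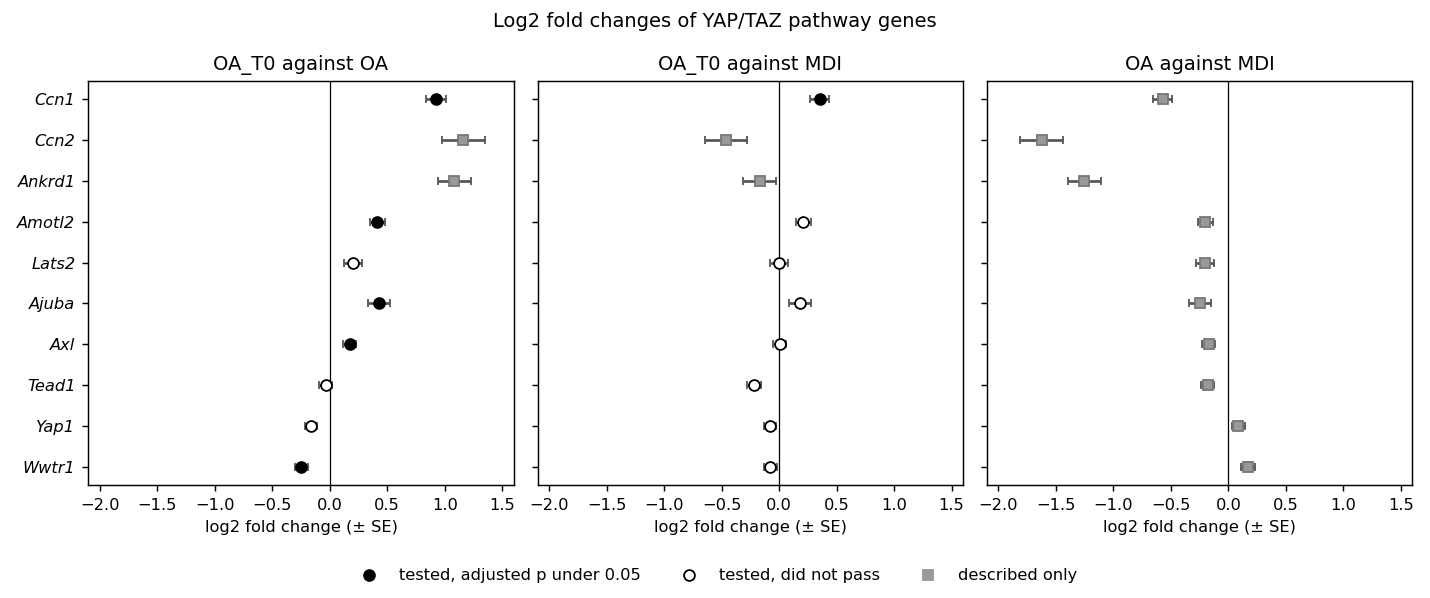
Log2 fold change with its standard error for each member in OA_T0 against OA, OA_T0 against MDI and OA against MDI; black points passed the test, white points did not, and grey squares were described without a test. Ccn1, Ccn2 and Ankrd1 lie farthest from 0 in OA_T0 against OA (0.93, 1.16 and 1.08), and all 3 are below 0 in OA against MDI.

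The wider pathway was followed in 4 lists drawn from general knowledge, with earlier results of these data known. Of all tested genes, 8.27% were called higher and 6.84% lower in OA_T0 against OA. The shares were 1.25% and 1.36% in OA_T0 against MDI, and 3.43% and 3.36% in OA against MDI. Genes of these lists did not choose the set and were tested in all 3 comparisons. The pathway itself was chosen on OA against MDI, so their calls in that comparison are not independent of the choice. OA_T0 against OA shares the OA libraries and OA_T0 against MDI the MDI libraries, so calls there are not fully independent either. The 16 other targets of a YAP and TAZ signature first described in human cancers were all in the table, and 15 passed the filter, Nt5e being the exception. In OA_T0 against OA, 6 of the 15 rose and 2 fell, with a median log2 fold change of 0.205. The number that fell was 1 without OA library 1, OA library 2, OA_T0 library 1 or OA_T0 library 3, since Asap1 then missed the threshold. In OA_T0 against MDI, 1 rose and 0 fell (2 rose without OA_T0 library 2), with 4 higher and 1 lower at an unadjusted p under 0.05 and a median of 0.099. In OA against MDI, 1 rose and 5 fell, with a median of -0.148. The 5 lower calls became 1 without MDI library 2, 2 without OA library 1 and 3 without OA library 3.

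Gadd45a, which encodes a stress-induced growth arrest protein, led these targets with 890 ± 176 normalised counts in OA_T0, 401 ± 46.5 in OA and 741 ± 55.9 in MDI (SD, n = 3 each). It was higher in OA_T0 than in OA by 1.14 on the log2 scale (SE 0.13; limma, adjusted p = 2.621e-05) and lower in OA than in MDI, at -0.89 (SE 0.13; limma, adjusted p = 0.000563). Nuak2, a kinase of the AMPK family, had 353 ± 37.4 in OA_T0, 170 ± 18.2 in OA and 262 ± 29.9 in MDI (normalised counts, SD, n = 3 each). It rose by 1.05 (SE 0.13; limma, adjusted p = 4.963e-05) in OA_T0 over OA and was lower in OA than in MDI, at -0.62 (SE 0.13; limma, adjusted p = 0.00742), a call that ended without MDI library 2 (0.0615). Crim1, a membrane protein that binds bone morphogenetic proteins, had 1214 ± 44.6 in OA_T0, 864 ± 61.7 in OA and 1077 ± 79.8 in MDI. It rose by 0.49 (SE 0.08; limma, adjusted p = 0.000471) in OA_T0 over OA, and its OA against MDI value of -0.32 passed (adjusted p = 0.0200) but not without MDI library 2 (0.124) or OA library 1 (0.104). The window upstream of Crim1 was among those with GGAATG.

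F3, the gene of tissue factor, which starts blood coagulation, was the 1 gene of this list called in OA_T0 against MDI. It had 4342 ± 340 normalised counts in OA_T0, 3178 ± 114 in OA and 3284 ± 231 in MDI (SD, n = 3 each). OA_T0 lay above both: by 0.45 over OA (SE 0.07; limma, adjusted p = 0.000457) and by 0.40 over MDI (SE 0.07; limma, adjusted p = 0.00469), while OA against MDI was -0.05. Ccdc80, a secreted protein known from adipose tissue, went the other way, with 730.5 ± 97.9 in OA_T0, 1309 ± 74.2 in OA and 867 ± 90.1 in MDI. It fell by 0.85 on the log2 scale in OA_T0 relative to OA (SE 0.10; limma, adjusted p = 2.911e-05) and was higher in OA than in MDI by 0.60 (SE 0.10; limma, adjusted p = 0.00152). Asap1, a GTPase-activating protein for ARF, fell by 0.21 in OA_T0 relative to OA (SE 0.06; limma, adjusted p = 0.0233). Without OA library 1, OA library 2, OA_T0 library 1 or OA_T0 library 3 its adjusted p was 0.0869, 0.0572, 0.116 and 0.0718 in that order. Rbms3, an RNA-binding protein, was lower in OA than in MDI, at -0.33 (SE 0.08; limma, adjusted p = 0.0187), but not without MDI library 1 (0.0747), MDI library 2 (0.0976), OA library 1 (0.0826) or OA library 3 (0.0715). Dock5, the fifth lower call in OA against MDI, falls outside the naming rule and was added after its values were seen. It had risen by 0.35 in OA_T0 over OA (SE 0.07; limma, adjusted p = 0.00376), a call kept with any 1 library left out. Its value in OA against MDI was -0.25 (SE 0.07; limma, adjusted p = 0.0464), a call lost without MDI library 2 (0.223), MDI library 3 (0.0832), OA library 1 (0.111), OA library 2 (0.0571), OA library 3 (0.138) or OA_T0 library 1 (0.0630). Igfbp3, likewise added outside the naming rule, rose by 0.43 in OA_T0 over OA (SE 0.10; limma, adjusted p = 0.0123). That call ended without OA library 1 (0.0728) or OA_T0 library 1 (0.0847).

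Of the 4 other CCN genes, paralogues of Ccn1 and Ccn2, 3 passed the filter and Ccn6 did not. Ccn4, also known as WISP1, had 1622 ± 135 normalised counts in OA_T0, 1269 ± 68.7 in OA and 1757 ± 90.7 in MDI (SD, n = 3 each). It rose by 0.35 in OA_T0 over OA (SE 0.07; limma, adjusted p = 0.0045) and was lower in OA than in MDI, at -0.47 (SE 0.07; limma, adjusted p = 0.00113). Ccn5, or WISP2, which lacks the carboxy-terminal module of its relatives, had 1218 ± 129 in OA_T0, 1934 ± 204 in OA and 1242 ± 120 in MDI. Its mean was highest in OA, where that of Ccn4 was lowest. Ccn5 fell by 0.67 in OA_T0 relative to OA (SE 0.09; limma, adjusted p = 0.000238) and was 0.64 higher in OA than in MDI (SE 0.09; limma, adjusted p = 0.000771). Ccn3 was at -0.01 to 0.06 in the 3 comparisons and passed in none. All 4 calls on Ccn4 and Ccn5 held with any 1 library left out, and 0 of the 3 genes passed in OA_T0 against MDI, at the adjusted or the unadjusted threshold.

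Of the other TEAD factors and the vestigial-like cofactors that compete for them, 5 of 7 symbols were in the table and tested; Vgll1 and Vgll2 were not analysed here. In OA_T0 against OA 2 of the 5 rose and 0 fell, where 8.27% of all tested genes were called higher and 6.84% lower. At an unadjusted p under 0.05, 2 were higher and 1 lower. The 2 that rose were Tead2, at 0.18 (SE 0.06; limma, adjusted p = 0.0472), and Tead4, at 0.34 (SE 0.09; limma, adjusted p = 0.0223). Neither passed without OA library 1, OA library 2 or OA_T0 library 1, where the adjusted p was 0.150, 0.180 and 0.134 for Tead2 and 0.0848, 0.0986 and 0.118 for Tead4. Tead2 also missed the threshold without MDI library 2 (0.0709), OA_T0 library 2 (0.0686) or OA_T0 library 3 (0.111). No gene of this list passed in the other 2 comparisons; at an unadjusted p under 0.05, 2 were higher in OA_T0 than in MDI and 1 was lower in OA than in MDI, and 1 gene was called lower in OA than in MDI without OA library 2 or OA_T0 library 3.

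The 21 Hippo kinases and upstream regulators were all tested, and most did not pass. In OA_T0 against OA 1 of the 21 rose and 3 fell, where 8.27% of all tested genes were called higher and 6.84% lower. Counts this small are not read as a result about the list. Wwc1, or KIBRA, a scaffold that activates LATS kinases, had 1058 ± 107 normalised counts in OA_T0, 733 ± 21.0 in OA and 899 ± 61.6 in MDI (SD, n = 3 each), and rose by 0.53 in OA_T0 over OA (SE 0.08; limma, adjusted p = 0.00059). Amot, angiomotin, had 1658 ± 249 in OA_T0, 2387 ± 214 in OA and 2071 ± 121 in MDI, and fell by 0.53 (SE 0.09; limma, adjusted p = 0.00143), opposite to its paralogue Amotl2. Frmd6 (Willin) fell by 0.30 (SE 0.08; limma, adjusted p = 0.0248) and the kinase gene Taok1 by 0.24 (SE 0.08; limma, adjusted p = 0.0453). Those last 2 calls ended when OA library 1, OA library 2, OA_T0 library 1 or OA_T0 library 3 was left out, which gave adjusted p-values of 0.0737, 0.0569, 0.0940 and 0.0962 for Frmd6 and 0.175, 0.188, 0.107 and 0.145 for Taok1, so that 1 of the 3 lower calls remained. Frmd6 also missed the threshold without OA library 3 (0.0517), and Taok1 without MDI library 1 (0.0523) or MDI library 2 (0.0672). The counts in the other direction moved as well: without OA library 3, 3 genes of this list were called higher, and without OA_T0 library 2, 2 were called higher and 5 lower.

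In OA against MDI, Frmd6 rose by 0.29 (SE 0.08; limma, adjusted p = 0.0492) while Wwc1 fell by 0.29 (SE 0.08; limma, adjusted p = 0.0450) and Rassf1, which binds the MST kinases, by 0.24 (SE 0.06; limma, adjusted p = 0.0306). None of these 3 calls held without MDI library 2 (adjusted p of 0.140, 0.202 and 0.160), OA library 1 (0.120, 0.134 and 0.142) or OA library 2 (0.0939, 0.0718 and 0.0523), given for Frmd6, Wwc1 and Rassf1 in turn. Frmd6 was also lost without MDI library 1 (0.198), OA library 3 (0.120) or OA_T0 library 1 (0.0756), Wwc1 without MDI library 3 (0.0885), OA library 3 (0.107) or OA_T0 library 1 (0.0620), and Rassf1 without MDI library 1 (0.0590). In OA_T0 against MDI 0 of the 21 passed, with 2 higher and 3 lower at an unadjusted p under 0.05; without MDI library 3 or OA_T0 library 3 1 was called higher, and without OA_T0 library 2 1 was called lower. The kinase genes Stk3, Stk4 and Lats1 passed in none of the 3 comparisons, with log2 fold changes of -0.14 to 0.12.

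**Figure D4:**
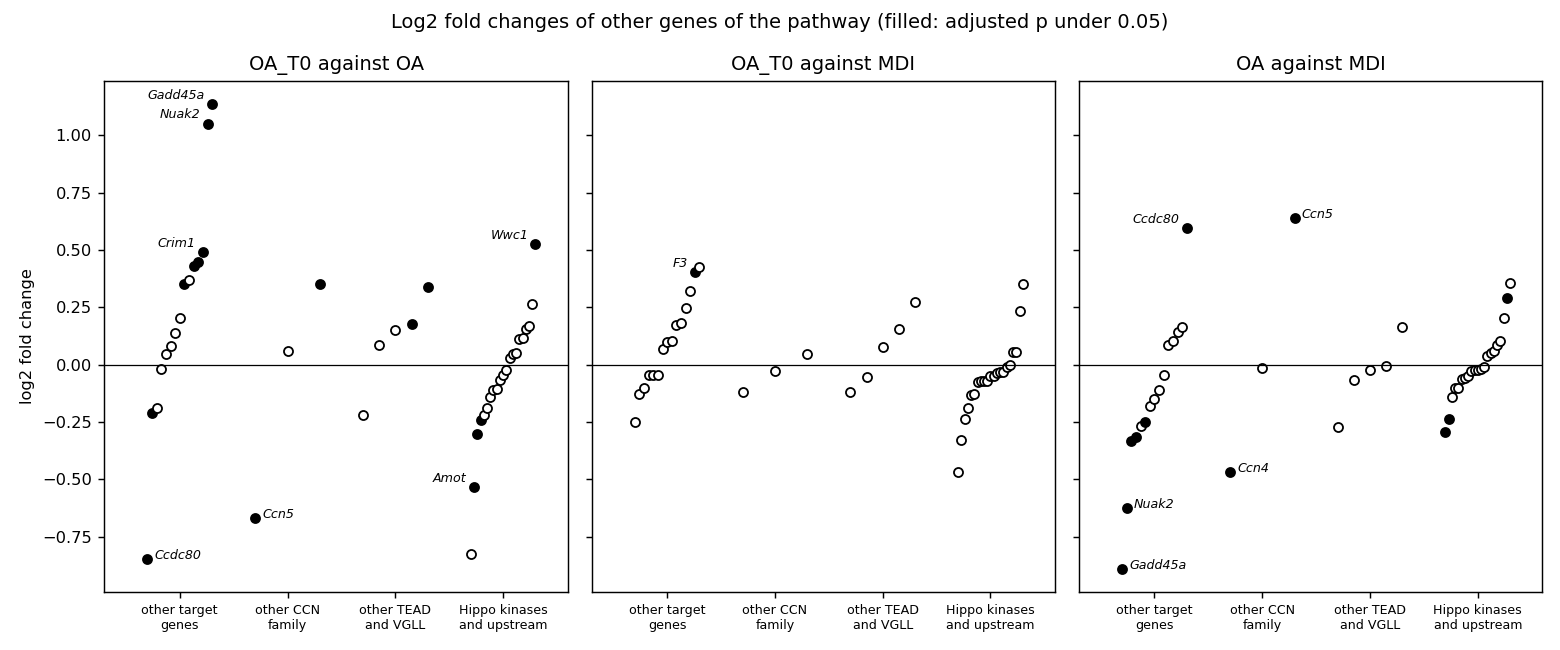
Log2 fold changes of the 44 tested genes of the 4 lists in each comparison, with 1 point per gene, ordered by value within its list; filled points passed the test, and those far from 0 are named. Gadd45a and Nuak2 lie highest in OA_T0 against OA and lowest in OA against MDI, and in OA_T0 against MDI F3 is the 1 filled point.

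Without both libraries low in ribosomal RNA, 3 of the 8 members rose and 0 fell in OA_T0 against OA, and Ccn1 alone was called in OA_T0 against MDI. Over the 4 lists together, 7 genes rose and 3 fell in OA_T0 against OA without these 2 libraries, against 10 and 6 with them. For OA against MDI 2 rose and 3 fell without them, against 3 and 8 with all libraries. Calls over all tested genes fell as well in OA_T0 against OA, as given in the closing section. The drop there is therefore not read as particular to these lists. The named calls that ended in OA_T0 against OA were those of Tead2 (limma, adjusted p = 0.264), Tead4 (0.132), Igfbp3 (0.131), Frmd6 (0.196), Taok1 (0.369) and Asap1 (0.188). Those lost in OA against MDI were Frmd6 (0.0528), Wwc1 (0.0710), Rassf1 (0.144), Crim1 (0.0946), Rbms3 (0.0597) and Dock5 (0.102).

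Some of the same calls also ended under other settings. With no filter on low values, adjusted p-values in OA_T0 against OA were 0.0784 for Tead2, 0.0529 for Tead4, 0.0743 for Igfbp3, 0.0870 for Frmd6 and 0.135 for Taok1. The values for OA against MDI were 0.161 for Frmd6, 0.120 for Wwc1, 0.0714 for Rassf1, 0.0630 for Crim1, 0.0847 for Rbms3 and 0.106 for Dock5. With only the 2 groups compared in the fit, Tead2 (0.0649) and Taok1 (0.0695) missed the threshold in OA_T0 against OA, and Dock5 (0.0506) in OA against MDI. Tead2 was also lost with equal library totals (0.0724) and Taok1 with quantile normalisation (0.0588).

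Markers of 2 other cell states differed between the groups. The summed levels of 6 smooth muscle markers were 5875 to 6470 normalised counts in OA_T0, 3260 to 3855 in OA and 4146 to 5620 in MDI libraries, a sum carried by Acta2. Acta2 had 4811, 4611 and 4636 in OA_T0, 1988, 1754 and 2076 in OA, and 2995, 4056 and 4029 in MDI libraries, the order of group means seen for Ccn1. Acta2 and Tagln rose in OA_T0 over OA, and Acta2 was lower in OA than in MDI (limma, adjusted p of 5.545e-07, 0.00145 and 3.257e-05 in that order). Des and Smtn instead averaged highest in OA: Des had 56.9 ± 4.11 in OA_T0, 84.2 ± 8.79 in OA and 59.97 ± 8.30 in MDI, and Smtn 1118 ± 279 in OA_T0, 1256 ± 175 in OA and 1020.3 ± 180.3 in MDI (SD, n = 3 each). The OA libraries of Des lay above all others without overlap, but neither gene passed in any comparison. Myh11 and Cnn1, which define mature smooth muscle, stayed between 0 and 8.05. Adipocyte markers, of which 5 of 6 were in the table, summed to 601 to 746 in OA_T0, 1838 to 2389 in OA and 298 to 463 in MDI libraries. Nearly all of this was Fabp4, and the sums were highest in OA. Endothelial markers summed to 13.1 to 20.0 and macrophage and leukocyte markers to 22.2 to 48.7 over all libraries, Adgre1 being 0 in each. Cdh1, the 1 epithelial marker of 4 in the table, stayed between 0 and 1.12. The part of these markers, and of the fibroblast genes that moved, in the members' values was not tested.

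The genes whose profile over the 9 libraries lay nearest to Ccn2 and Ankrd1 were found by the root mean square difference between centred log2 profiles, as a description. The search ran among the 15002 tested genes, with unnamed gene models left out. Ankrd1 was itself the nearest to Ccn2, at 0.283, where the profile of Ccn2 had a root mean square of 0.715. It was followed by Adm2, a peptide hormone gene (0.286), Id4, an inhibitor of basic helix-loop-helix factors (0.291), Dennd2d (0.306) and Sema3g, a secreted semaphorin (0.315). Id4 was the most abundant of these, with 938 ± 70.7 normalised counts in OA_T0, 349.8 ± 35.3 in OA and 907 ± 133 in MDI (SD, n = 3 each). Nearest to Ankrd1, whose own root mean square was 0.576, were Dusp4, a phosphatase of MAP kinases (0.199), Lrp2, the endocytic receptor megalin (0.200), the keratin gene Krt7 (0.207), Slc7a2, a transporter of cationic amino acids (0.216), and Gdap1l1 (0.226). Dusp4 had 162 ± 12.6 in OA_T0, 81.9 ± 6.09 in OA and 152 ± 16.2 in MDI, and Krt7 33.9 ± 4.12 in OA_T0, 12.7 ± 2.35 in OA and 31.8 ± 4.68 in MDI. Likeness of profile over 9 libraries in 3 groups rests largely on the 3 group means. Ccn2 and Ankrd1 were both chosen for their fall with oleic acid, so their likeness follows in part from the choice.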

How the data were processed

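RNA of 9 libraries was measured by sequencing. The authors deposited normalised counts per gene, a signal that is not whole numbers; the submitters' processing notes name CASAVA 1.8.2, TopHat, HTSeq, DESeq2 and build mm9, without roles. Between 5 and 50 steps of the value taken as 1 fragment, 62.3% to 68.8% of values were whole multiples (within 0.05 step), so reads were not recovered and depth is an estimate; floors cover counting error only. Columns were matched to libraries by name.

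Values were taken as log2(value + 1), which understates changes of low genes, and 15002 genes with a mean of at least 10 were fitted with limma 3.58.1 (R 4.3.3; intensity trend, 1 spread for the 3 groups, no replicate block), with two-sided p-values adjusted by Benjamini-Hochberg over all tested genes and a threshold of 0.05. The fit was tested on simulated data. Members and lists were chosen with earlier results of these data known. Named were all members, per list and direction the 4 calls with the smallest adjusted p, and the 5 nearest profiles. Exon lengths came from GENCODE M21 and sequences from RefSeq; the protein comparison planned for YAP1 and TAZ was not made. Alternatives covered the pseudocount, filter, scaling, variance, block and each library.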

Additional observations from a re-analysis of the deposited data

How the results depend on the processing

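The member fold changes, the counts of calls and the calls on list genes were recomputed with pseudocounts of 0.5 and 5, no filter or a minimum mean of 50, quantile normalisation, equal library totals, only the 2 groups compared, robust variances, the replicate block, each library left out, and without both libraries low in ribosomal RNA. Marker calls, nearest profiles, the order of the groups and the ratio of Wwtr1 to Yap1 were not followed through these settings. In OA_T0 against OA, Ccn1, Amotl2 and Ajuba passed under all 19 alternatives, with adjusted p-values up to 0.000621, 0.00816 and 0.0335. The losses and gains of Axl, Wwtr1, Yap1, Tead1 and Ccn1 stand beside their values, except the loss of Axl under the block, given last; the causes were not tested. Signs turned for 2 members near 0 in OA_T0 against MDI. Lats2 gave -0.028 with quantile normalisation, -0.034 with equal totals and -0.051 to 0.075 with 1 library left out. Axl gave -0.009, -0.031 and -0.035 to 0.037.

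Without a filter, calls fell to 620 lower genes in OA_T0 against OA, 72 higher and 38 lower in OA_T0 against MDI, and 233 higher and 234 lower in OA against MDI, of which 3 lower were genes of the 4 lists; 0 members were then higher in OA_T0 than in MDI. Without both libraries low in ribosomal RNA, OA_T0 against OA had 524 higher and 400 lower genes, with 0 members and 3 list genes lower, and 3 list genes were lower in OA than in MDI. Robust variances gave 132 lower genes in OA_T0 against MDI. Equal totals gave 2 members lower in OA_T0 than in OA, and 1 list gene lower in OA_T0 than in MDI; quantile normalisation gave 1 member and 1 list gene lower in OA_T0 than in MDI. With 1 library left out, OA_T0 against OA had 580 to 1443 higher and 474 to 1239 lower genes, with 0 to 2 members and 3 to 9 list genes lower. OA_T0 against MDI had 66 to 283 higher genes, with 0 to 1 members and 1 to 2 list genes, and 45 to 247 lower, with 0 to 1 members and 0 to 1 list genes. OA against MDI had 214 to 660 higher and 155 to 642 lower genes, with 2 to 9 list genes lower.

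With the replicate block, 1095 genes were higher and 916 lower in OA_T0 than in OA, 156 and 183 in OA_T0 against MDI, and 433 and 417 in OA against MDI; Axl (adjusted p = 0.0668) and Tead2 (0.0561) no longer passed in OA_T0 against OA, nor Frmd6 (0.0618), Wwc1 (0.0535) and Rassf1 (0.0554) in OA against MDI. Deviations of same-numbered libraries correlated at -0.256 to 0.259, so the numbers were not taken as pairs.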
